A study of Mus musculus with 6 samples.

Results

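These 32 genes are known targets of the tumour suppressor p53, without Cdkn1a, chosen by name from the 30349 genes listed in the table. All 32 were listed, and all 32 passed the filter on low levels. They were read in cultured primary epidermal keratinocytes, taken from mice at postnatal day 2 and grown for 5 to 6 days in low calcium (0.05 mM) with 2.5 ng/mL EGF and serum at 4% that had been chelated. Both genotypes were grown this way, 3 libraries labelled wild type (replicates 13, 14 and 15) and 3 labelled p63 alphaKO (replicates 9, 10 and 11). The sources used here do not give the strain, the part of Trp63 lost in p63 alphaKO or the number of animals behind the libraries, so p-values measure the spread between these libraries, which may in part be technical. Levels are in CPM, the reads of a gene per 1000000 reads of its library, from 3' digital sequencing, which reads transcripts near their 3' ends.

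The protein p53 is a transcription factor that is stabilised after DNA damage and other stress and then switches on genes that stop the cell cycle, repair DNA, shift metabolism or start cell death. Its targets include its own inhibitors, above all Mdm2, so the pathway limits itself. In the epidermis p53 is known for its response to ultraviolet light. The relative p63, encoded by Trp63, is the p53 family member that keeps stratified epithelia, and it can bind DNA sites similar to those of p53.

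A site for p53 is built of a pair of half-sites of 10 bases. A window from 250 bases before to 50 bases after a RefSeq start site (GRCm38.p6) was at hand for 25 of the 32 genes and not for Ddb2, Pmaip1, Rrm2b, Tnfrsf10b, Trp53inp1, Xpc and Zmat3. An exact match to the p53 half-site consensus, which reads the same on both strands, lay in a window of 8 of these 25 genes (32%), against 9.55% of all 27025 genes with a window. These were Mdm2, Ccng1, Ppm1d, Bax, Aen, Ei24, Sesn1 and Polk. A pair of adjacent half-sites with up to 3 mismatches in all, outside the C and G at the core of each, lay in a window of 4 of the 25 (16%; Ccng1, Bbc3, Aen and Sesn1) and of 1.63% of all genes. The genes were chosen as p53 targets, so these shares describe the choice. A match is a stretch of letters and does not show binding, which was not measured. The stretch of Bbc3 comes from 1 of its 3 windows. That of Sesn1 lies before a start site at 41887439, inside the gene, whose annotated start is 41809935. The stretches of Bbc3, Aen and Ei24 printed below also lie inside their annotated genes. These genes start at 16308393 (Bbc3), 78895854 (Aen) and, on the minus strand, 36797393 (Ei24). The match of Aen also lies in another of its windows, there after the start site (78895927), from base 11. Stretches before a RefSeq start site are printed for 8 genes whose levels are described with their roles. The stretches are read 5′ to 3′ along their genes, with the match in capitals. They lie at chr10:117710910-117710969 (Mdm2, minus strand), chr11:40755437-40755506 (Ccng1, minus strand), chr11:85311097-85311156 (Ppm1d, plus strand), chr7:45467065-45467124 (Bax, minus strand), chr7:16309461-16309530 (Bbc3, plus strand), chr7:78895912-78895981 (Aen, plus strand), chr9:36797335-36797369 (Ei24, minus strand) and chr10:41887241-41887310 (Sesn1, plus strand). The capitals mark 1 half-site in Mdm2, Ppm1d, Bax and Ei24. They mark a pair in Ccng1, with 1 mismatch, and in Bbc3, Aen and Sesn1, with 3 mismatches each.
Mdm2: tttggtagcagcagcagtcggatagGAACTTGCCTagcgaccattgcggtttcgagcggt
Ccng1: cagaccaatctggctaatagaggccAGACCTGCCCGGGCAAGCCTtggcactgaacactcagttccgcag
Ppm1d: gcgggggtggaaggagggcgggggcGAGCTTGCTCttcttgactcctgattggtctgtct
Bax: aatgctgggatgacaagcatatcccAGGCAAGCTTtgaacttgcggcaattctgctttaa
Bbc3: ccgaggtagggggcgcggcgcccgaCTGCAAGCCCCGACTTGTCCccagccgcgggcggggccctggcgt
Aen: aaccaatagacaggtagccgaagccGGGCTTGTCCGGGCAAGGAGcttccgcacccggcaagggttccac
Ei24: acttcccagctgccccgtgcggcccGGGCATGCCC
Sesn1: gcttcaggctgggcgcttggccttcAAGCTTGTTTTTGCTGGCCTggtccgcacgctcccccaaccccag

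The libraries held 1699716 to 3215333 reads, the fewest in p63 alphaKO replicate 11. Replicate 11 also stood apart across the genome: of the 11716 genes tested it was the highest library for 23.5% and the lowest for 26.3%, where the other 5 libraries took 14.1% to 17.5% and 13.0% to 17.7%. Of the 8 keratinocyte markers, none was at 0 in any group, and they summed to 26716 to 30214 CPM in wild type, against 22492 to 31763 CPM in p63 alphaKO, the lowest sum again in replicate 11. Krt1 and Krt10, the suprabasal keratins, summed to 231.9 to 427.6 CPM in wild type, against 38.6 to 88.6 CPM in p63 alphaKO. Melanocyte markers (9) summed to 308.4 to 823.2 and 232.2 to 1026 CPM, fibroblast markers (7, Lum at 0 throughout) to 16.8 to 43.4 and 5.88 to 41.3 CPM, and muscle markers (10, Myh3 and Myh8 at 0 throughout) to 78.2 to 694.1 and 17.4 to 74.1 CPM, with the highest muscle sum in wild type replicate 15. For melanocyte and fibroblast markers alike, the lowest wild type sum was in replicate 15 and the lowest p63 alphaKO sum in replicate 11. The melanocyte sums of the other 4 libraries were 552.1 to 1026 CPM. In fibroblast markers p63 alphaKO replicate 9 (16.9 CPM) lay level with wild type replicate 15. Endothelial (4) and immune (6) markers summed to at most 4.70 CPM. Xist, the RNA of the silenced X chromosome, was seen in wild type replicate 13 (290.6 CPM) and p63 alphaKO replicate 11 (673 CPM) and at no more than 0.32 CPM in the others. The Y-linked genes Ddx3y, Uty, Eif2s3y and Kdm5d had 0 reads in these 2 libraries and were read in the other 4, so replicate 11 was the only p63 alphaKO library without them. The part of these differences in the results below was not tested, and fewer cells of a type and less RNA per cell cannot be told apart in such cultures.

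No p53 target gene passed the test between p63 alphaKO and wild type keratinocytes. None of the 32 reached an adjusted p of 0.05 in limma, where 5 of 11716 genes did (0.0427%), and the smallest adjusted p was 0.729, for Mdm2. By unadjusted p under 0.05, 1 of the 32 stood higher in p63 alphaKO (Mdm2) and 0 lower, where 3.01% and 3.35% of all genes did (6.36% in either direction). edgeR and DESeq2, run on the reads recovered from the table, also called 0 of the 32, against 0.0171% and 0.154% of all genes. In each of these tools Mdm2 and Gdf15 were under an unadjusted 0.05, as were 6.15% of all genes in edgeR and 5.54% in DESeq2. As a description, 24 of the 32 lay higher in p63 alphaKO (75.0%, against 50.7% of all genes tested), with a median log2 fold change of 0.17 against 0.01. Log2 fold changes are p63 alphaKO minus wild type on the scale of log2(CPM + 1), which understates the change of genes at low levels.

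Leaving out 1 library at a time gave 20 to 24 higher members. Without p63 alphaKO replicate 11, 22 of the 32 lay higher, against 54.2% of all genes, with a median of 0.12 against 0.04. Without replicate 10 the count was also 22, and without replicate 9 or wild type replicate 14 it was 23. Without wild type replicate 15, in which 11 members had their lowest level, 20 lay higher, against 49.8% of all genes, with a median of 0.04. Leaving out both wild type replicate 15 and p63 alphaKO replicate 11 gave 20, against 52.5% of all genes, and a median of 0.07. For 29 of the 32, leaving out 1 of the 6 libraries turned the sign or moved the log2 fold change by over 1.5 times, the exceptions being Fdxr, Dcxr and Polk. Groups did not overlap for 5 members, Mdm2, Ppm1d and Fdxr higher in p63 alphaKO (6.45% of all genes) and Ddb2 and Sesn1 lower (5.09%), against 11.5% of all genes in either direction. The 95% intervals of 21 members lay within a 2-fold change either way. Larger changes remain within the intervals of the other 11, which are Mdm2, Fas, Pidd1, Trp53i11, Ddb2, Rrm2b, Sesn1, Sesn2, Fdxr, Gdf15 and Cd82.

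**Figure D1:**
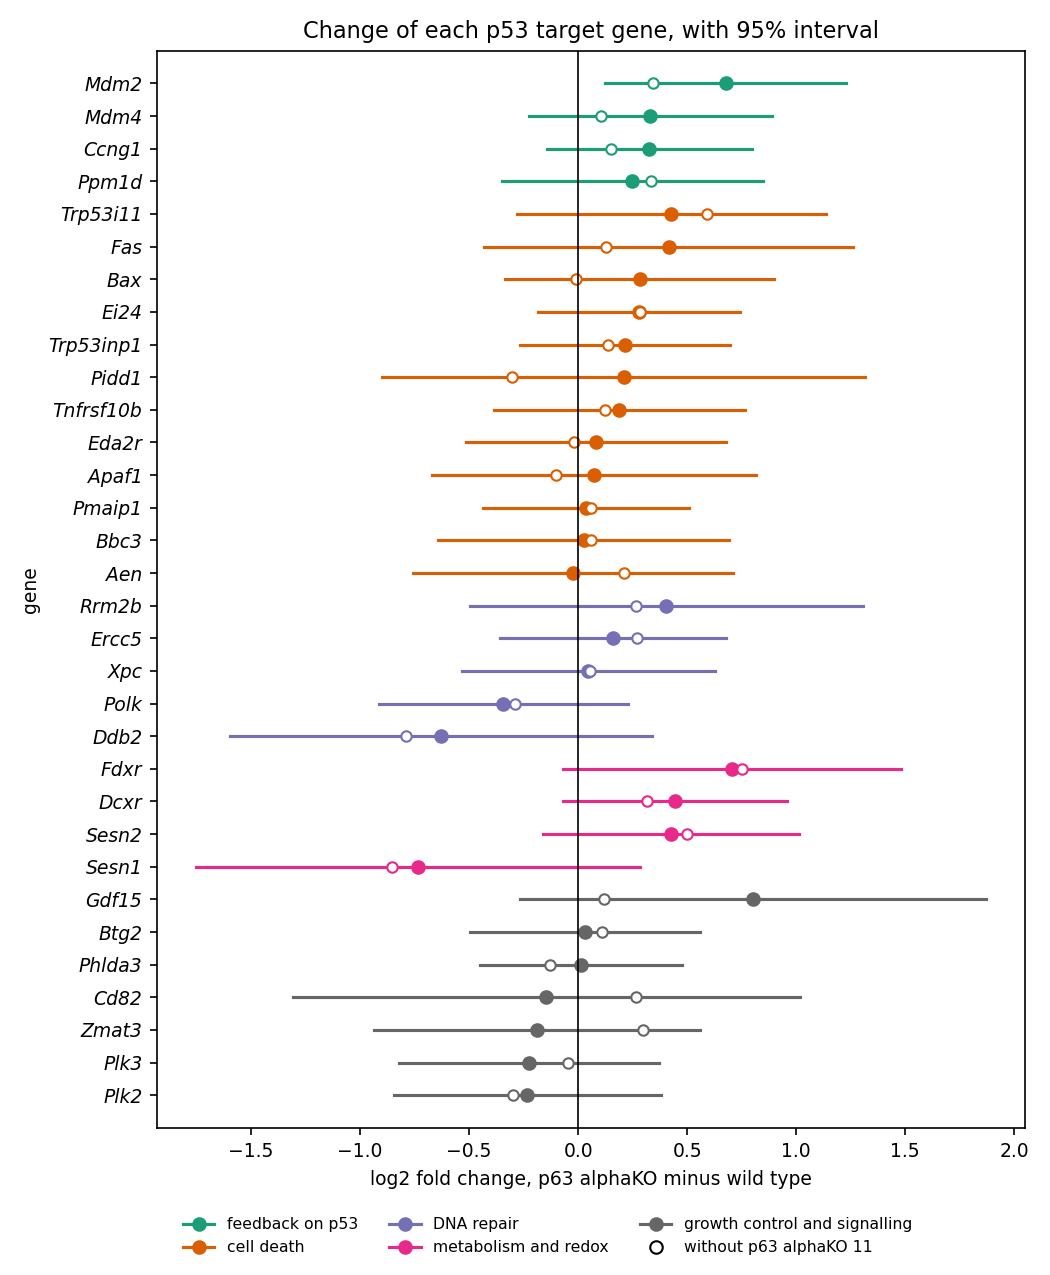
Log2 fold change (x axis, p63 alphaKO minus wild type, fitted on log2(CPM + 1)) of each p53 target gene (y axis), grouped by role. Filled points are the estimates with all 6 libraries, lines their 95% intervals from limma before adjustment, and open points the estimates without p63 alphaKO replicate 11. The interval of Mdm2 alone leaves out 0, and its open point lies at 0.34.

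Feedback genes, which restrain p53, had 4 of 4 members higher and none past the threshold, with a median log2 fold change of 0.33. All 4 also lay higher without replicate 11 (median 0.24) and without wild type replicate 15 as well (median 0.23). Of all genes tested 50.7% lay higher, the share to set beside the count of each role group. Mdm2 (GRCm38 chromosome 10, 117688875 to 117710758, minus strand), the ubiquitin ligase that marks p53 for degradation, was at 168.1, 185.6 and 191.9 CPM in wild type, against 240.7, 221.3 and 462.0 CPM in p63 alphaKO, in the order of replicates given above. All 3 p63 alphaKO libraries lay above all 3 wild type libraries, and replicate 11 stood far above the other 2. The means were 181.8 ± 12.3 and 308.0 ± 133.7 CPM (SD, n = 3), a log2 fold change of 0.68 (SE 0.26, 95% interval 0.12 to 1.23, limma unadjusted p = 0.0193, adjusted p = 0.729). Mdm2 had 527 to 786 reads in each library, and in replicate 11 the exact 95% Poisson interval was 430.7 to 495.9 CPM, which covers counting error alone. Without that library the log2 fold change was 0.34 (limma unadjusted p = 0.0944).

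Ccng1 (chromosome 11, 40748552 to 40755311), whose product cyclin G1 brings a phosphatase to Mdm2, was at 280.6, 258.0 and 260.8 CPM in wild type, against 323.8, 269.3 and 428.5 CPM in p63 alphaKO. The groups overlapped, since replicate 10 lay under wild type replicate 13 (log2 fold change 0.33, SE 0.22, limma adjusted p = 0.883). Without replicate 11 that value was 0.15. Mdm4, a relative of Mdm2 that blocks p53 as an activator, was at 51.6 to 55.6 CPM in wild type, against 52.5, 64.7 and 94.0 CPM in p63 alphaKO (a log2 fold change of 0.33, adjusted p = 0.904, and 0.10 without replicate 11). A pseudogene copy, Mdm4-ps, could share its reads. For Mdm2, Mdm4 and Ccng1 alike the highest library was replicate 11. Ppm1d, a phosphatase that removes activating phosphates from p53, had another order. It was at 24.2, 22.7 and 23.2 CPM in wild type, against 27.9, 31.7 and 24.7 CPM in p63 alphaKO, where replicate 11 was the lowest of the 3. The groups did not overlap, by a small margin, and the log2 fold change was 0.25 (SE 0.28, limma adjusted p = 0.935).

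**Figure D2:**
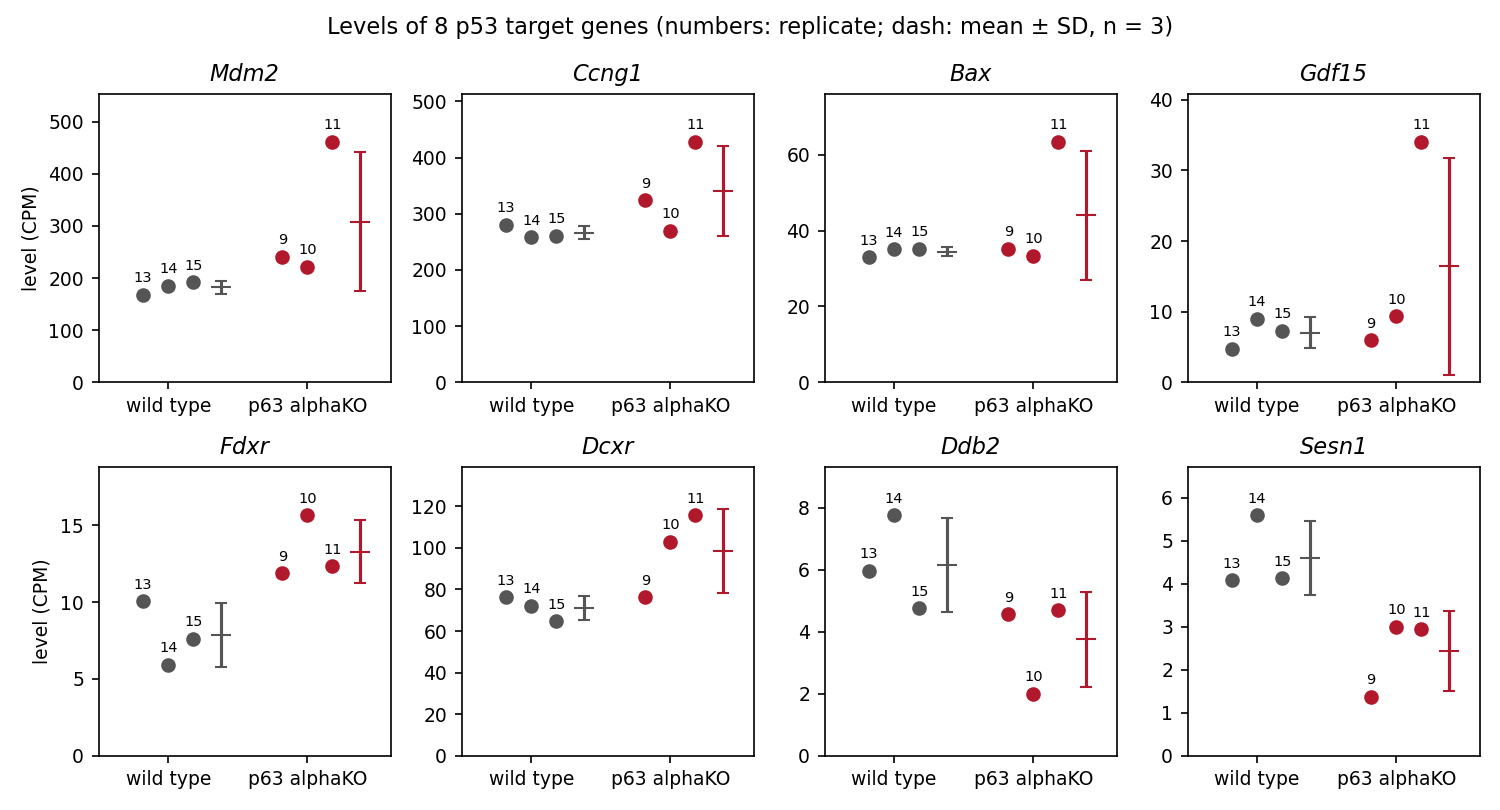
Levels in CPM (y axes, from 0, scaled per gene) of 8 p53 target genes in wild type (grey) and p63 alphaKO (red) libraries, each point 1 library with its replicate number, and the dash with whiskers the mean ± SD (n = 3). Replicate 11 is the highest point for Mdm2, Ccng1, Bax, Gdf15 and Dcxr, while the groups do not overlap for Mdm2, Fdxr, Ddb2 and Sesn1.

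Cell death genes had 11 of 12 members higher and none past the threshold, with a median log2 fold change of 0.20, and 8 of 12 higher (median 0.09) without replicate 11. Without wild type replicate 15 as well, 6 of 12 lay higher, with a median of -0.01. Bax (chromosome 7, 45461697 to 45466898), which forms pores in the mitochondrial outer membrane and shares exon sequence with the predicted gene Gm45808, was at 33.0, 35.1 and 35.3 CPM in wild type, against 35.2, 33.3 and 63.5 CPM in p63 alphaKO. Replicates 9 and 10 lay at the wild type level and replicate 11 at 1.80 times the highest other library, so the log2 fold change of 0.28 (SE 0.29, limma adjusted p = 0.930) was -0.01 without it. Fas, a death receptor, was at 7.15 to 8.26 CPM in wild type, against 11.4, 6.33 and 16.5 CPM in p63 alphaKO (a log2 fold change of 0.42, adjusted p = 0.926, and 0.13 without replicate 11). Pidd1, a scaffold for caspase-2, was also highest in replicate 11, on few reads: its 11.2 CPM there were 19 reads, and the other 5 libraries had 5 to 20. Its log2 fold change was 0.21, and -0.31 without replicate 11.

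The BH3-only genes, whose products set off Bax, had no such level in replicate 11. Bbc3, encoding PUMA, was at 13.8, 15.2 and 16.5 CPM in wild type, against 15.98, 15.7 and 14.7 CPM in p63 alphaKO. These ranges overlapped almost wholly, with a log2 fold change of 0.02 (95% interval -0.64 to 0.69, limma adjusted p = 0.998). Pmaip1, encoding NOXA, was at 185.5 to 252.7 CPM in wild type, against 199.3 to 272.2 CPM in p63 alphaKO (a log2 fold change of 0.03, 95% interval -0.44 to 0.51). In replicate 11 Bbc3 was at 0.967 times the wild type mean and Pmaip1 at 0.982 times, where Bax was at 1.84 times. Whether Bax differs from these genes in replicate 11 was not tested.

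The cell death members of smallest p were Trp53i11 and Ei24. Trp53i11, named as a p53-inducible gene, was at 43.4, 70.6 and 24.1 CPM in wild type, against 73.1, 55.7 and 45.3 CPM in p63 alphaKO. Wild type spanned most of the p63 alphaKO range (log2 fold change 0.43, SE 0.34, limma adjusted p = 0.904), and without wild type replicate 15 the value was 0.04. Ei24, a protein of the endoplasmic reticulum, was at 153.3, 170.7 and 125.8 CPM in wild type, against 195.0, 168.6 and 179.9 CPM in p63 alphaKO (a log2 fold change of 0.28, SE 0.22, adjusted p = 0.904). Without wild type replicate 15 the log2 fold change of Ei24 was 0.16. The ectodysplasin receptor gene Eda2r, which lies on the X chromosome, was at 26.1 to 36.4 CPM in wild type, against 26.9 to 37.6 CPM in p63 alphaKO (a log2 fold change of 0.08). The groups of the remaining members overlapped as well. Tnfrsf10b, a death receptor gene, was at 33.7 to 54.4 CPM in wild type, against 40.2 to 52.99 CPM in p63 alphaKO, a log2 fold change of 0.19. Trp53inp1, a stress-induced cofactor of p53, was at 127.4 to 181.9 and 164.6 to 207.5 CPM, a log2 fold change of 0.21. Apaf1, the core of the apoptosome, was at 10.5 to 20.1 and 12.7 to 21.2 CPM, and the nuclease gene Aen at 12.1 to 19.4 and 11.2 to 21.3 CPM, with log2 fold changes of 0.07 and -0.02. For Tnfrsf10b, Trp53inp1 and Apaf1, wild type replicate 15 was the lowest of the 6 libraries, as it was for Pmaip1, Trp53i11, Ei24 and Eda2r.

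DNA repair genes had 3 of 5 members higher and 2 lower, with a median log2 fold change of 0.05 and none past the threshold. Ddb2 (chromosome 2, 91211572 to 91236982), which recognises ultraviolet damage, was at 5.97, 7.77 and 4.76 CPM in wild type, against 4.57, 2.00 and 4.70 CPM in p63 alphaKO. The groups did not overlap, though wild type replicate 15 and p63 alphaKO replicate 11 were 15 and 8 reads, each within the exact 95% Poisson interval of the other (2.67 to 7.86 and 2.03 to 9.27 CPM). The log2 fold change was -0.63 (SE 0.46, 95% interval -1.59 to 0.34, limma adjusted p = 0.885). Ddb2 shares exon sequence with Acp2 on the opposite strand, and the strand used in counting is not given. Polk, a DNA polymerase that copies past damaged bases, was at 52.5, 50.05 and 35.9 CPM in wild type, against 33.3, 41.3 and 32.9 CPM in p63 alphaKO, overlapping through replicate 10 (log2 fold change -0.34, SE 0.27, adjusted p = 0.904). The other 3 repair genes overlapped between groups. Xpc, a partner of Ddb2 in damage recognition, was at 28.6 to 44.8 CPM in wild type, against 34.3 to 38.8 CPM in p63 alphaKO, and the repair nuclease gene Ercc5 was at 79.1 to 111.2 and 87.0 to 128.3 CPM, with log2 fold changes of 0.05 and 0.16. Rrm2b, the p53-inducible subunit of ribonucleotide reductase, was at 3.14 to 6.67 and 6.33 to 8.82 CPM, on 51 reads in wild type and 48 in p63 alphaKO, with a log2 fold change of 0.40.

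Metabolic and redox genes had the largest median of the 5 role groups, 0.44, with 3 of 4 members higher and none past the threshold, and that median was 0.41 without replicate 11. Fdxr (chromosome 11, 115268024 to 115277050), the mitochondrial ferredoxin reductase, was at 10.1, 5.91 and 7.62 CPM in wild type, against 11.9, 15.7 and 12.3 CPM in p63 alphaKO. All p63 alphaKO libraries lay above all wild type libraries and replicate 10 was the highest, on 19 to 47 reads per library. The means were 7.86 ± 2.08 and 13.3 ± 2.07 CPM (SD, n = 3). The log2 fold change was 0.71 (SE 0.37, 95% interval -0.07 to 1.48, limma adjusted p = 0.795), and 0.75 without replicate 11. Dcxr (chromosome 11, 120725399 to 120727281), a carbonyl reductase that makes xylitol, was at 76.4, 72.1 and 64.8 CPM in wild type, against 76.3, 103.0 and 115.8 CPM in p63 alphaKO. Replicate 9 lay level with wild type replicate 13 and the other 2 above it (log2 fold change 0.44, SE 0.24, adjusted p = 0.816).

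The sestrins, which restrain the growth kinase mTORC1, lay on opposite sides. Sesn2 was at 42.7, 28.9 and 36.5 CPM in wild type, against 41.1, 62.7 and 43.5 CPM in p63 alphaKO, with its highest level in replicate 10 (log2 fold change 0.43, SE 0.28, limma adjusted p = 0.870). Sesn1 (chromosome 10, 41809935 to 41908424) was at 4.08, 5.60 and 4.13 CPM in wild type, against 1.37, 3.00 and 2.94 CPM in p63 alphaKO, with no overlap. Its 44 reads in wild type and 17 in p63 alphaKO gave a log2 fold change of -0.73 (SE 0.48, 95% interval -1.75 to 0.28, adjusted p = 0.872). The difference between the sestrins was not tested.

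Growth control and signalling genes had 3 of 7 members higher and 4 lower, with a median log2 fold change of -0.15 and none past the threshold. Without replicate 11, 4 of 7 lay higher and the median was 0.11. Gdf15 (chromosome 8, 70629393 to 70632456), a secreted cytokine of stressed cells, was at 4.71, 9.01 and 7.31 CPM in wild type, against 5.94, 9.33 and 34.1 CPM in p63 alphaKO. Replicates 9 and 10 lay in or at the wild type range, and replicate 11, with 58 reads, stood at 3.65 times the highest other library (exact 95% Poisson interval 25.9 to 44.1 CPM, counting error alone). The means were 7.01 ± 2.17 and 16.5 ± 15.4 CPM (SD, n = 3). The log2 fold change was 0.80 (SE 0.51, limma adjusted p = 0.863), and 0.12 without replicate 11. Zmat3, an RNA-binding zinc finger protein, lay low in that library. It was at 206.7, 168.5 and 99.7 CPM in wild type, against 164.4, 211.9 and 67.0 CPM in p63 alphaKO. Its log2 fold change of -0.19 was 0.30 without replicate 11, which was its lowest library, and wild type replicate 15 was the next lowest.

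The polo-like kinase genes Plk2 and Plk3 both overlapped between groups. Plk3 was at 55.6, 50.4 and 35.6 CPM in wild type, against 41.1, 49.0 and 30.6 CPM in p63 alphaKO (a log2 fold change of -0.23, SE 0.28, limma adjusted p = 0.946). Without replicate 11 its log2 fold change was -0.047. Plk2 ranged from 56.2 CPM in wild type replicate 15 to 137.0 CPM in replicate 13, which held all p63 alphaKO values (66.7 to 84.1 CPM). Its log2 fold change was -0.23, and 0.066 without wild type replicate 13. Without wild type replicate 15 and p63 alphaKO replicate 11 it was -0.64 (limma adjusted p = 0.323), with no overlap. In that setting 40.4% of all genes did not overlap. Phlda3, which keeps the kinase Akt from the membrane, was at 180.3 to 191.5 CPM in wild type, against 156.6 to 225.7 CPM in p63 alphaKO (a log2 fold change of 0.01, 95% interval -0.45 to 0.48). Btg2, an antiproliferative gene that is also an early response gene of cell handling, was at 48.0 to 63.4 and 51.1 to 66.0 CPM (log2 fold change 0.03). The 12 early response markers summed to 1173 to 1352 CPM in wild type, against 1170 to 1327 CPM in p63 alphaKO, with 9 of 11 tested lower. Ier3, also among the further p53 targets below, held 562.7 to 633.5 CPM of this in wild type. In p63 alphaKO Ier3 held 658.9 to 718.3 CPM and lay higher without overlap. Atf3 and Nr4a1 lay lower without overlap, on 39 and 31 reads in wild type. The sums therefore do not show the direction of the other markers. Cd82, a tetraspanin, was read at only 2 to 21 reads per library (log2 fold change -0.15).

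**Figure D3:**
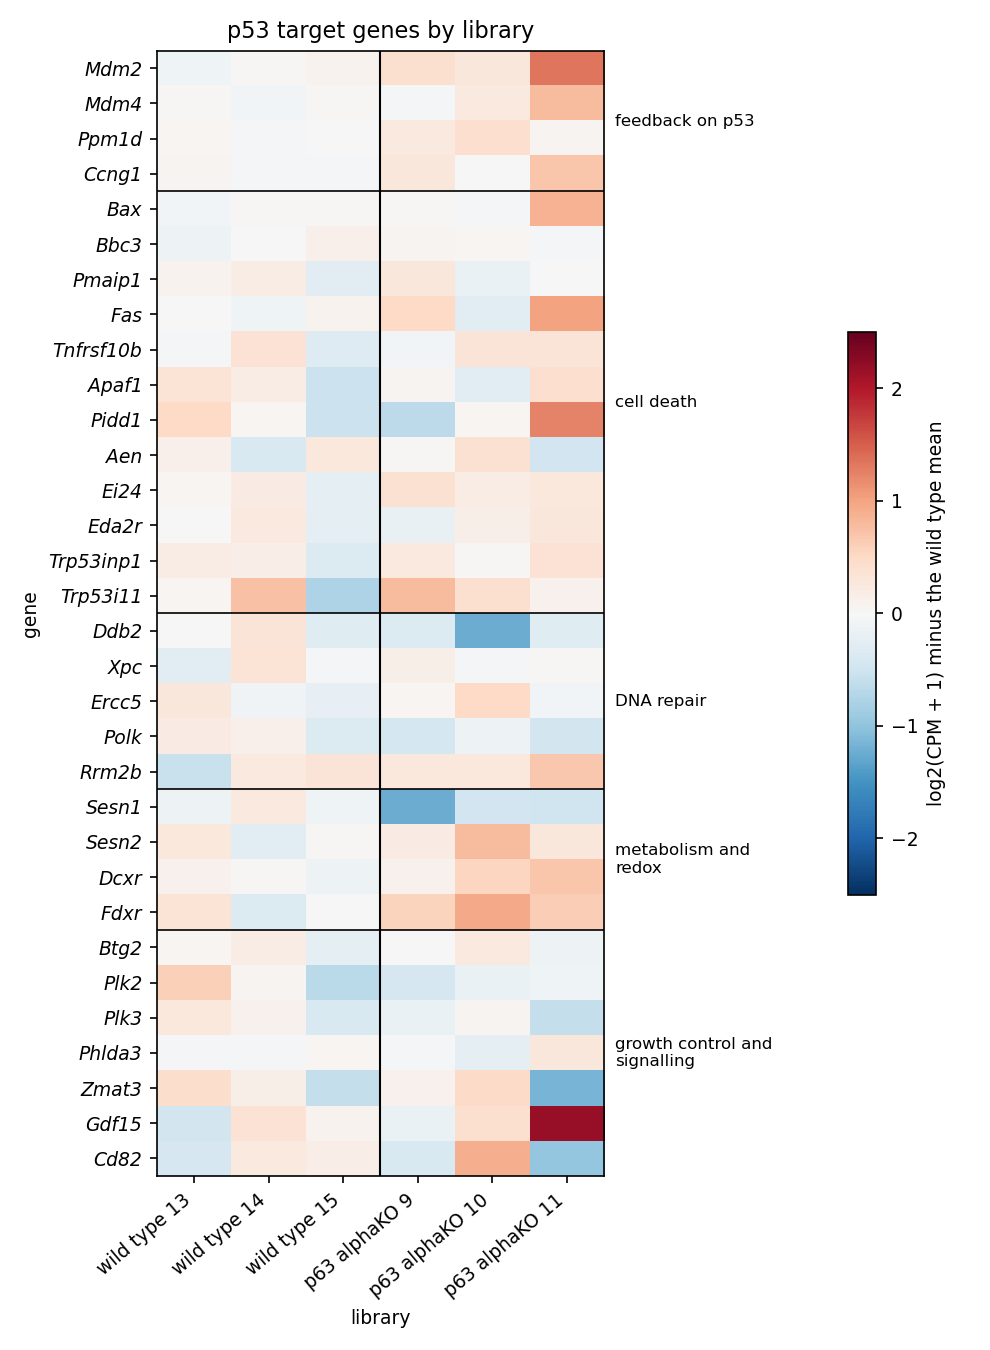
Heat map of the 32 p53 target genes (rows, by role) in the 6 libraries (columns), coloured by log2(CPM + 1) minus the mean of the wild type libraries, with red higher and blue lower. The column of p63 alphaKO replicate 11 holds the deepest red, for Gdf15 at 2.17, beside Mdm2, Bax, Pidd1 and Fas, and it is blue for Zmat3, Cd82 and Plk3.

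The p63 alphaKO libraries also differed among themselves in these genes. Replicate 11 was the highest library for 13 of the 32 (40.6%, against 23.5% of all genes), replicate 10 for 8 (25%, against 17.5%) and replicate 9 for 3 (9.38%, against 16.1%). The wild type libraries were the highest for 3, 4 and 1 (14.1%, 14.8% and 14.1% of all genes). They were the lowest for 6, 5 and 11 (13.3%, 17.7% and 15.7%), and the p63 alphaKO libraries for 2, 3 and 5 (14.1%, 13.0% and 26.3%). By a ratio chosen after the values were seen, replicate 11 was at least 1.5 times the highest of the other 5 libraries for 4 of the 32 (Mdm2, Bax, Pidd1 and Gdf15, 12.5%), where 5.31% of all genes were. It lay above all wild type libraries for 17 members (30.8% of all genes) and below all of them for 7 (32.9%). Replicate 9 lay above for 9 (27.6%) and below for 4 (23.9%), and replicate 10 above for 12 (29.0%) and below for 4 (22.3%). Summed over the 32 genes, the level was 2295, 2251 and 1862 CPM in wild type, against 2365, 2332 and 2730 CPM in p63 alphaKO. These are descriptions of single libraries, and what set replicate 11 apart was not tested.

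**Figure D4:**
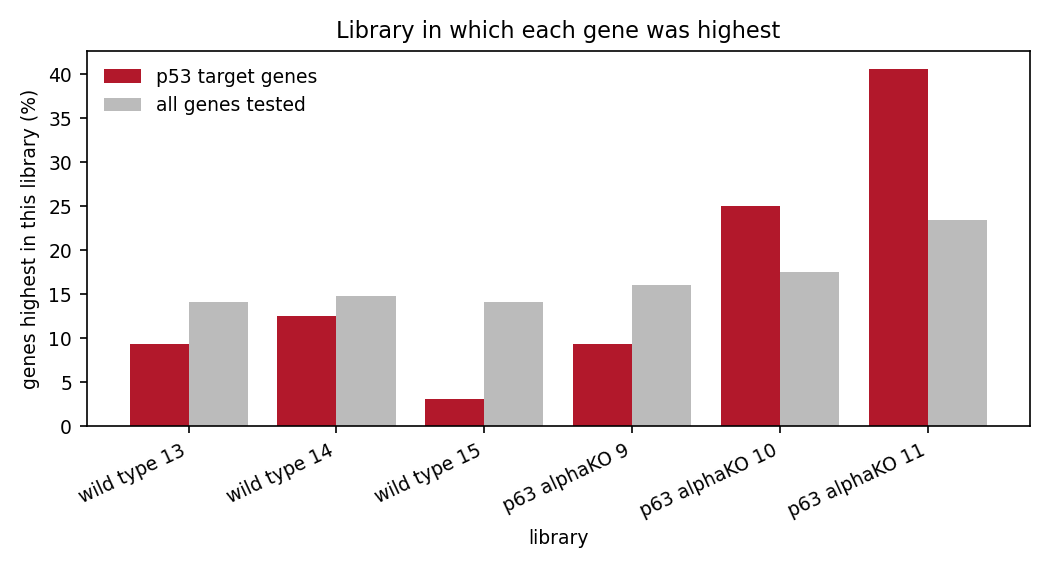
Share of genes (y axis, percent) that had their highest level in each of the 6 libraries (x axis), for the 32 p53 target genes (red bars) and for the 11716 genes tested (grey bars). The red bar stands above the grey one in p63 alphaKO replicates 10 and 11 and below it in the other 4 libraries, with 40.6% against 23.5% in replicate 11 and 3.13% against 14.1% in wild type replicate 15.

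Trp53, which encodes p53 and is controlled mostly at the protein level, was at 51.8, 43.2 and 36.5 CPM in wild type, against 30.1, 55.6 and 37.0 CPM in p63 alphaKO. The groups overlapped (log2 fold change -0.13, SE 0.29, limma adjusted p = 0.987), and replicate 11 lay inside the wild type range. A pseudogene copy, Trp53-ps, could share its reads. Trp63 was at 38.02 to 53.2 CPM in wild type, against 49.8 to 59.3 CPM in p63 alphaKO (a log2 fold change of 0.25, adjusted p = 0.926), and since its reads are summed over the gene, this level does not check the genotype. Cdkn1a, the cell cycle inhibitor p21 and the best known p53 target, was at 2369, 2107 and 1734 CPM in wild type, against 2625, 2732 and 2235 CPM in p63 alphaKO. For Cdkn1a replicate 11 was the lowest of the 3, below wild type replicate 13 (log2 fold change 0.30, SE 0.22, adjusted p = 0.888).

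Other genes of the pathway, in lists taken by role, held 0 members past the threshold too. Regulators and relatives of p53 had 8 of 23 higher, against 50.7% of all genes tested, with a median log2 fold change of -0.08. Without replicate 11 that median was -0.04, and without wild type replicate 15 as well it was 0.0015. Among these regulators the checkpoint kinase gene Chek1 (log2 fold change -0.66, limma adjusted p = 0.817) and the p53 deacetylase gene Sirt1 (-0.59, adjusted p = 0.822) lay lower without overlap. The damage kinase gene Atm (log2 fold change 0.31, limma adjusted p = 0.917) and Ppp1r13b, a p53 cofactor (0.52, adjusted p = 0.914), lay higher with overlap. Further targets had 15 of 20 higher, with a median of 0.10. Without replicate 11, 13 of 20 lay higher (median 0.24), and without wild type replicate 15 as well 10 of 20 (median 0.05). Gadd45a, a growth arrest gene, was at 10.1, 9.33 and 7.94 CPM in wild type, against 17.4, 14.7 and 25.3 CPM in p63 alphaKO, with no overlap and the highest level again in replicate 11 (log2 fold change 0.96, SE 0.35, limma unadjusted p = 0.0131, adjusted p = 0.716). That log2 fold change was 0.75 without replicate 11. Dram1, an autophagy gene, had 27 reads in wild type and 11 in p63 alphaKO, all of them in replicate 10 (log2 fold change -1.15, adjusted p = 0.832), and Kitl, which encodes stem cell factor, lay lower without overlap (log2 fold change -0.45, adjusted p = 0.885).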

How the data were processed

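RNA from 6 keratinocyte cultures, 3 wild type and 3 p63 alphaKO, was isolated with a column kit and read by 3' digital sequencing, per the labels' protocols. The submitters' processing notes name STAR, HTSeq and mm10, with no roles. Not given in the sources used here are their versions, the annotation, the strand and any molecular identifiers. The authors deposited CPM with 2 decimals: columns sum to 999047 to 999508, and 100% of the nonzero values come out whole to within 0.1 read, which gave back the reads per library. The members, lists and most settings were chosen with earlier results of these data known.

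The 11716 of 30349 genes that averaged 1 CPM or more were tested with limma 3.58.1 (R 4.3.3, trend, two-sided) on log2(CPM + 1), with Benjamini-Hochberg adjustment over all genes tested and a threshold of 0.05. SE and intervals are limma's. edgeR 4.0.16 (quasi-likelihood, TMM) and DESeq2 1.42.0 ran on the recovered reads. Other alternatives were pseudocounts of 0.5 and 5, no filter, a minimum of 5 CPM, quantile and TMM scaling, and libraries left out. Tested on 5 simulated sets of this comparison (11716 genes, 200 changed), the limma fit recovered 1.2% of the genes given a 1.5-fold change. It recovered 18.4%, 85.6% and 94.4% of those given 2-fold, 4-fold and 8-fold changes, with 28 of 527 calls false. The changed genes were drawn only from those averaging 5 CPM or more, so these shares do not cover Ddb2, Sesn1 and Cd82. No simulated library was made to stand apart as p63 alphaKO replicate 11 did. Described in full are the 2 members of smallest p per role group, Mdm2, Ccng1, Bbc3 and Gdf15, and outside the 32 Trp53, Trp63, Cdkn1a and the 2 genes of smallest p per list and direction. A gene that this rule names is not reported here. Other members with every library given were chosen after their values were seen. Coordinates are from GENCODE vM21 (GRCm38). By that annotation 4 members share exon sequence with a gene on the opposite strand (Ei24, Ddb2, Rrm2b and Plk3) and 1 with a gene on the same strand (Bax).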

Additional observations from a re-analysis of the deposited data

How the results depend on the processing

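No member passed the threshold under any of the 15 alternatives, and the count of higher members was 20 to 25 in each. No paired analysis was possible because the groups share no replicate numbers. Over all genes, 5 calls became 2 with a pseudocount of 0.5, 3 with 5, 1 without a filter, 2 at a minimum of 5 CPM, 2 in edgeR, 18 in DESeq2, 2 to 13 leaving out 1 library (13 without p63 alphaKO replicate 11) and 48 leaving out wild type replicate 15 and p63 alphaKO replicate 11. The 5 members without overlap became 3 at a minimum of 5 CPM, where Ddb2, Sesn1 and Cd82 were not tested, 5 to 10 without 1 library, where 17.5% to 25.1% of all genes did not overlap, and 12 of 32 without both, where 40.4% of all genes did not, since fewer libraries overlap less. Under quantile scaling the 5 held Dcxr in place of Ddb2 (4 higher, 1 lower), and under DESeq2's scaling Dcxr joined the original 5. The median log2 fold change ran from 0.044 (without wild type replicate 15) to 0.22 when 1 library was left out. Without both libraries the sign turned for Pmaip1 (-0.076), Tnfrsf10b (-0.035), Apaf1 (-0.37), Pidd1 (-0.58), Aen (0.34), Eda2r (-0.13), Trp53inp1 (-0.030), Phlda3 (-0.10), Zmat3 (0.000256) and Cd82 (0.35). It turned for Phlda3 with TMM scaling (-0.0088) and for Cd82 in edgeR (0.094) and DESeq2 (0.080). Leaving out 1 library gave values on both sides of 0 for Bax (-0.0088 to 0.45), Bbc3 (-0.037 to 0.084), Pmaip1 (-0.10 to 0.13), Apaf1 (-0.19 to 0.25), Pidd1 (-0.31 to 0.64), Aen (-0.23 to 0.21), Eda2r (-0.032 to 0.21), Xpc (-0.10 to 0.22), Ercc5 (-0.0077 to 0.31), Btg2 (-0.078 to 0.12), Plk2 (-0.57 to 0.066), Phlda3 (-0.13 to 0.14), Zmat3 (-0.52 to 0.30) and Cd82 (-0.67 to 0.26). None of these was called, and the cause was not tested. For the other 16 members the sign held in each alternative that tested them. Members with under 30 reads in a library (Ddb2, Sesn1, Pidd1, Cd82, Rrm2b, Gdf15, Fdxr, Fas and others) are limited by counting.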
